A study of Mus musculus with 4 samples.

Results

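Bone morphogenetic protein (BMP) ligands and the secreted proteins that bind BMPs or activins outside the cell were followed as 10 genes, taken by symbol from the 17575 entries listed over 4 RNA-seq libraries of mouse rib chondrocytes. 6 of them encode ligands (Bmp2, Bmp4, Bmp5, Bmp6, Bmp7 and Bmp8a) and 4 encode antagonists (Nog, Grem1, Chrd and Fst). The 10 genes were chosen with earlier results of these data known. All 10 were listed in every library and passed the filter on low counts. In the knockout, Bmp2, Bmp6, Bmp7 and the antagonist gene Fst fell, the antagonist gene Nog rose, and the other 5 did not pass the test.

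BMPs are secreted dimers of the TGF-beta superfamily. They bind pairs of type I and type II serine/threonine kinase receptors, which phosphorylate Smad1, Smad5 and Smad9, and these enter the nucleus with Smad4. In growth cartilage BMP signalling is known for its part in chondrocyte differentiation, proliferation and hypertrophy, and noggin, gremlin 1 and chordin hold BMPs away from their receptors. Follistatin does so mainly for activins and also for some BMPs.

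The knockout (KO) libraries came from mice with the transgene Col2Cre(Tg), a Cre recombinase driven in cartilage, together with Kdm6a(fl/fl) and, for the related gene, Kdm6b(fl/fl). These loxP-flanked genes encode demethylases of histone H3 lysine 27. The other libraries came from wild type (WT) mice. Whether those carried loxP sites or Cre is not given in the labels. All mice were 10 days old and of strain C57/Bl6, and rib cartilage cells were freed with collagenase and plated before RNA extraction. The series description speaks of triplicates, whereas 2 KO and 2 WT libraries were analysed here, and the labels do not say whether replicates were separate animals. The p-values therefore reflect the variation among these libraries alone, some of which may be technical.

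Estimated counts summed to 32332044 and 32230980 in the KO libraries and to 31616619 and 31178248 in the WT libraries. Kdm6b measured 51.4 and 46.2 CPM (counts divided by TMM-scaled library size) in KO, against 131 and 118 CPM in WT, and Kdm6a 28.6 and 31.4 CPM in KO, against 52.6 and 56.9 CPM in WT. These counts cover whole genes and not the deleted exons alone. The cartilage markers stood at summed levels of 10150 and 9856 FPKM (fragments per kilobase, scaled to depth) in KO and 7279 and 6766 FPKM in WT over 8 genes, sums made up mostly of Col2a1. All 8 were present; 3 rose (Col2a1, Col9a1 and Col11a1), 2 fell (Matn1 and Comp) and the list's median log2 fold change was 0.07. Across 13773 tested genes, 9.25% differed between KO and WT at a Benjamini-Hochberg adjusted p under 0.05 in edgeR's quasi-likelihood test, 3.62% upward and 5.63% downward.

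By FPKM, which allows levels of different genes to be compared, Bmp6 led the ligands in both groups, with 45.6 and 59.4 FPKM in KO and 109 and 110 FPKM in WT. Bmp5 came next in KO with 24.7 and 21.5 FPKM, above Bmp2 with 14.8 and 11.1 FPKM. In WT that order was turned round, with 47.5 and 51.3 FPKM for Bmp2 and 17.9 and 17.1 FPKM for Bmp5. The FPKM ratio of Bmp2 to Bmp5 within a library was 0.599 and 0.517 in KO, against 2.66 and 3.0 in WT. Bmp7, Bmp8a and Bmp4 followed in both groups. Among the antagonists, Grem1 and Fst lay side by side in KO, with 8.33 and 11.1 FPKM for Grem1 and 7.53 and 8.64 FPKM for Fst, ranges that overlapped. In WT, Fst with 13.6 and 15.5 FPKM stood above Grem1 with 5.93 and 8.30 FPKM. Nog was lower than both in each group, and Chrd was under 0.2 FPKM in every library. In KO the ranges of Bmp8a and Bmp4 overlapped too, whereas in WT no neighbours in the order of the 10 genes overlapped.

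**Figure D1:**
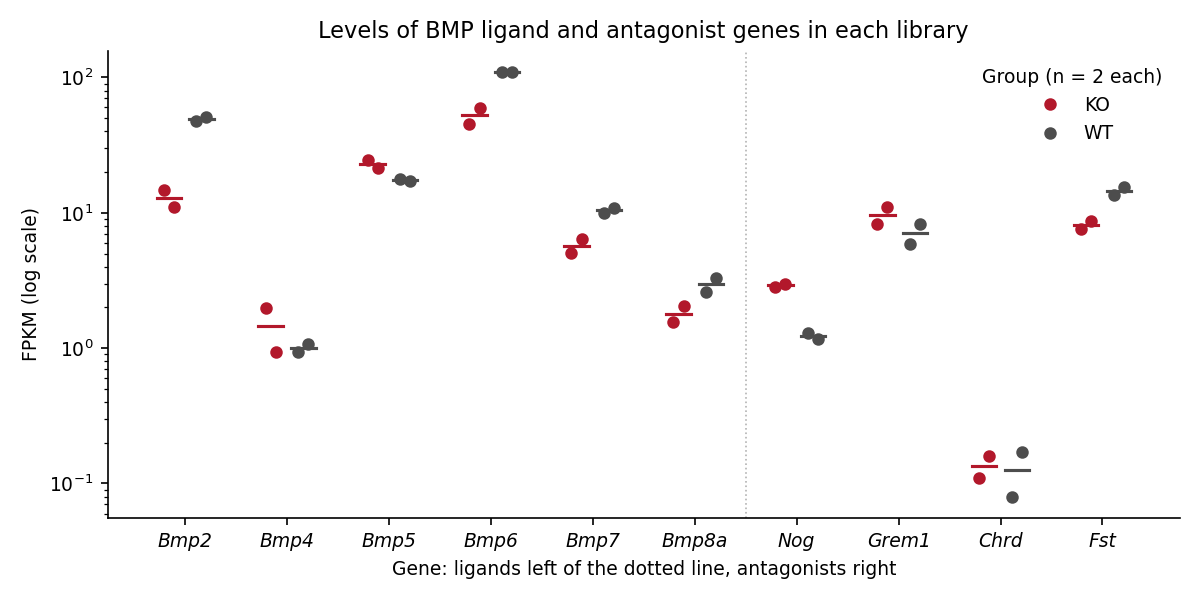
FPKM on a log axis of the 10 genes in each library, with KO (red) left of WT (grey); points are libraries and lines are group means (n = 2 each). Both KO points lie below both WT points for Bmp2, Bmp6, Bmp7, Bmp8a and Fst, and above them for Bmp5 and Nog. By CPM, the groups of 61.6% of all tested genes lay apart in this way, in either direction. The nearest Grem1 points, 8.33 FPKM in KO and 8.30 FPKM in WT, almost touch. The Chrd points, at 0.11 and 0.16 FPKM in KO and 0.08 and 0.17 FPKM in WT, overlap.

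Among the 6 ligand genes 3 fell, 0 rose and 3 stayed above the threshold, where 9.25% of all tested genes were called. Their median log2 fold change, KO minus WT, was -0.83, against 0.00443 over all tested genes. Bmp2, which encodes a ligand required for cartilage and bone formation and with Bmp4 forms a pair of close relatives, measured 52.3 and 39.3 CPM in KO, against 170 and 189 CPM in WT. The groups were far apart: the higher KO library stood under the lower WT library by more than the spread within either group. Bmp2 fell 3.92-fold (log2 fold change -1.97, SE 0.14, edgeR adjusted p = 0.00182) and ranked 32nd by p among all tested genes. Bmp4 measured 3.90 and 1.85 CPM in KO, against 1.87 and 2.21 CPM in WT. The groups overlapped, and KO replicate 1 alone was high, with 128 counts (exact 95% Poisson interval 107 to 152, counting error only) beside 60 counts (45.8 to 77.2) in KO replicate 2. Bmp4 did not pass, with a log2 fold change of 0.50 (95% interval -0.40 to 1.40, edgeR adjusted p = 0.413). Without KO replicate 1 its log2 fold change was -0.14. The 95% interval of Bmp2 was -2.31 to -1.63; the difference between these 2 genes was not tested itself.

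Bmp5, Bmp6, Bmp7 and Bmp8a belong to a second subgroup of ligands, close to each other in sequence. Bmp6, known in cartilage from maturing chondrocytes, measured 108 and 142 CPM in KO, against 263 and 271 CPM in WT. Both KO libraries lay below both WT libraries, with a wider spread in KO. Bmp6 fell 2.14-fold (log2 fold change -1.10, SE 0.13, edgeR adjusted p = 0.00807). Bmp7, a ligand of kidney, eye and skeletal development, measured 18.5 and 23.2 CPM in KO, against 36.9 and 41.2 CPM in WT. It too lay lower in 2 of 2 KO libraries and fell 1.87-fold (log2 fold change -0.91, SE 0.13, edgeR adjusted p = 0.0125). In Bmp2 KO replicate 2 was the lower KO library, and in Bmp6 and Bmp7 it was the higher one.

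Bmp8a, known in the mouse from germ cell development, measured 3.65 and 4.78 CPM in KO, against 6.15 and 8.05 CPM in WT. The groups did not overlap, as for 61.6% of all tested genes, and Bmp8a did not pass (log2 fold change -0.75, 95% interval -1.25 to -0.24, edgeR adjusted p = 0.0742). Its neighbour in sequence, Bmp8b, was scarcely counted, with 0.101 and 0.324 CPM in KO and 0.444 and 0.436 CPM in WT, and the split of reads between these close relatives is uncertain. Bmp5, a ligand whose loss gives the short ear mouse with altered cartilage, went the other way, with 61.6 and 53.7 CPM in KO, against 45.2 and 44.3 CPM in WT. Both KO libraries lay above both WT libraries. The log2 fold change was 0.36 (95% interval 0.15 to 0.58), and with an edgeR adjusted p of 0.054 it did not pass. The adjusted p was under 0.05 with upper-quartile scaling (0.0476), in DESeq2 (0.0329) and over genes averaging at least 5 CPM (0.0487). In edgeR it was above 0.05 with RLE scaling (0.0562), without a filter (0.092) and with transcript entries summed (0.0527). In limma on log2(FPKM + 1) and log2(FPKM + 0.1) it was 0.0592 and 0.0602.

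**Figure D2:**
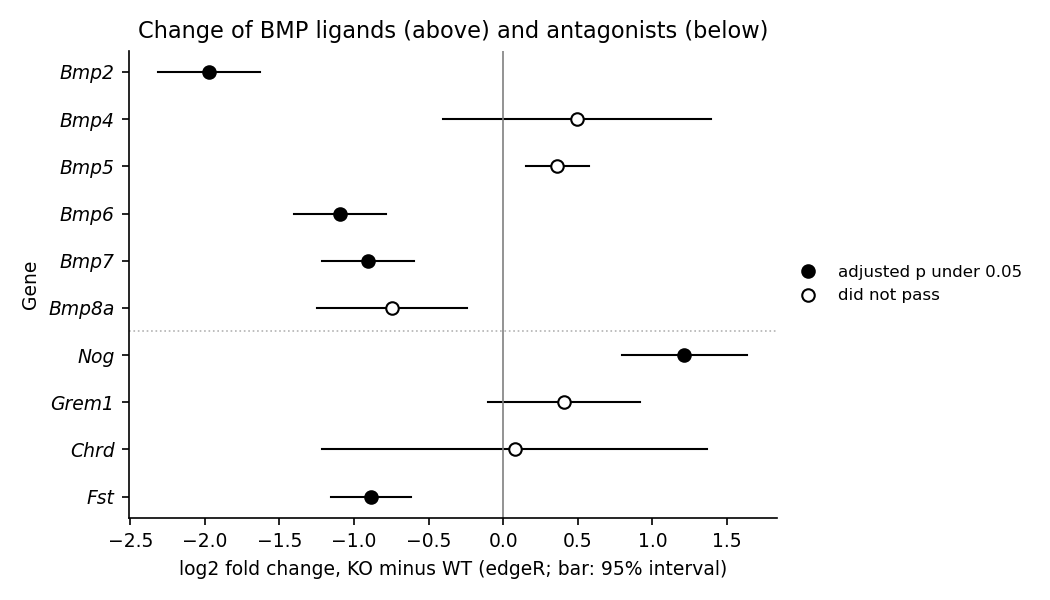
Log2 fold change of each gene, KO minus WT, from edgeR, with bars for the 95% interval; filled points have an adjusted p under 0.05 and the dotted line parts the ligands (above) from the antagonists (below). Bmp2 (-1.97), Bmp6 (-1.10), Bmp7 (-0.91) and Fst (-0.89) lie left of 0 and Nog (1.22) right of it, while the intervals of Bmp4, Grem1 and Chrd include 0.

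Promoter windows were at hand for only 6 of the 10 genes, and not for Bmp2, Bmp7, Nog or Fst, which all passed the test. Bmp6 is thus the only gene with a window that passed. The windows of 3 ligand genes of the subgroup that holds Bmp6 are printed, since they were at hand. Bmp6 fell, whereas Bmp8a and Bmp5 did not pass, with both KO libraries lower for Bmp8a and higher for Bmp5. Bmp7, of the same subgroup, fell but could not be shown. Each runs from 250 bases before to 50 bases after the annotated start, 5′ to 3′ on the gene's strand, from RefSeq on build GRCm38.p6. That build is not the mm9 build named in the submitters' processing notes, and the windows were not used for any measurement. Capitals mark CG dinucleotides. The windows lie at chr13:38345466-38345765 on the plus strand for Bmp6, chr4:123343203-123343502 on the minus strand for Bmp8a and chr9:75775115-75775414 on the plus strand for Bmp5.
Bmp6: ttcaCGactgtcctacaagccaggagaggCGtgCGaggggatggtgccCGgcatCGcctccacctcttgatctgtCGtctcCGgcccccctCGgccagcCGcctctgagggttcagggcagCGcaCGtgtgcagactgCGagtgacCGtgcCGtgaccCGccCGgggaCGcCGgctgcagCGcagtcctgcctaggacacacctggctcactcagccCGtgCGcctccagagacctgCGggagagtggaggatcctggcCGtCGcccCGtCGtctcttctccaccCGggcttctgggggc
Bmp8a: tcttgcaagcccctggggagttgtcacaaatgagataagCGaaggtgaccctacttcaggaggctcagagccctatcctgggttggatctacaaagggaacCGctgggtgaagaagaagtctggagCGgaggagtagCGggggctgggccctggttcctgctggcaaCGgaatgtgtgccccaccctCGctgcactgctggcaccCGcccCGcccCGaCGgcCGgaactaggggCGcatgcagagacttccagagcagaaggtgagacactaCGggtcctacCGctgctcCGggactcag
Bmp5: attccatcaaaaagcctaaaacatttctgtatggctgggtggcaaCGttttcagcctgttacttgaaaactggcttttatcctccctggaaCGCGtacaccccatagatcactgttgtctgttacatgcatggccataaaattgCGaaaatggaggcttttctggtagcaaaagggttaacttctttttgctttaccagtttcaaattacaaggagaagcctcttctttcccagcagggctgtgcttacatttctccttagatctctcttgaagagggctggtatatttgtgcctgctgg
The Bmp6 window holds 27 CG dinucleotides, that of Bmp8a 15 and that of Bmp5 4. Of all 32851 windows in the table, 15.5% hold at least as many as Bmp6, 34.6% at least as many as Bmp8a and 68.6% at least as many as Bmp5. G and C made up 69.3%, 62.0% and 43.3% of these windows, in the same order, against a median of 52.7% over all windows. Among the other members with a window, Bmp4 holds 12 CG dinucleotides, Grem1 28 and Chrd 34, and these 3 genes did not pass the test. The GC box letters GGGCGG, searched on both strands and overlapping the CG count, stand at 1 place in the Bmp6 window, 2 in that of Bmp8a and 0 in that of Bmp5, and in 35.7% of all windows. TATAAA and CCAAT, searched on both strands, stand in none of the 3, and in 13.6% and 37.4% of all windows.

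Among the 4 antagonist genes 1 rose, 1 fell and 2 stayed above the threshold. Over all tested genes 3.62% rose and 5.63% fell. The median log2 fold change of the antagonist genes was 0.24, against 0.00443 over all tested genes. Nog encodes noggin, which binds BMP2, BMP4 and BMP7 among others and shields their receptor contacts. It measured 5.37 and 5.65 CPM in KO, against 2.47 and 2.27 CPM in WT. The replicates of each group lay close together and the groups were well apart. Nog rose 2.32-fold (log2 fold change 1.22, SE 0.18, edgeR adjusted p = 0.0129), and its level was low in both groups, with 176 and 184 counts in KO and 78 and 69 counts in WT. Fst encodes follistatin, which binds activins tightly. It measured 19.9 and 22.8 CPM in KO, against 36.6 and 42.3 CPM in WT, with both KO libraries below both WT libraries. Fst fell 1.85-fold (log2 fold change -0.89, SE 0.11, edgeR adjusted p = 0.0096).

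Grem1 encodes gremlin 1, a cystine-knot antagonist of BMP2, BMP4 and BMP7. It measured 13.4 and 17.8 CPM in KO, against 9.65 and 13.9 CPM in WT. KO replicate 1 lay just under WT replicate 2, so the groups overlapped, although by FPKM the same libraries stood at 8.33 and 8.30. Grem1 did not pass (log2 fold change 0.41, 95% interval -0.10 to 0.92, edgeR adjusted p = 0.252). Chrd, the gene of chordin, had 12 and 17 counts in KO and 8 and 18 counts in WT. With exact 95% Poisson intervals from 6.20 to 27.2 counts in KO and from 3.45 to 28.5 counts in WT, counting error alone covers the gap between the groups. Its log2 fold change of 0.08 had an interval of -1.21 to 1.37 (edgeR adjusted p = 0.941).

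Added up as a description, the 6 ligands came to 93.6 and 101 FPKM in KO, against 188 and 193 FPKM in WT. The group means were 97.4 ± 5.4 FPKM in KO and 190.7 ± 3.8 FPKM in WT (SD, n = 2 each), a KO to WT ratio of 0.511. With 2 libraries a group an exact permutation test cannot go below p = 0.333, so no test is given. The 4 antagonists came to 18.8 and 22.8 FPKM in KO and to 20.9 and 25.1 FPKM in WT, and these groups overlapped. In CPM, which does not divide by length, the antagonist sums were 39.0 and 46.8 in KO, against 49.0 and 59.1 in WT, and did not overlap. Summed ligand over summed antagonist FPKM was 4.98 and 4.43 in KO, against 8.99 and 7.70 in WT. These sums weigh all genes alike and say nothing of protein or binding strength.

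The make-up of both sums differed between the groups. Bmp2 held 15.8% and 10.9% of the summed ligand FPKM in KO, against 25.3% and 26.5% in WT. Bmp5 held 26.3% and 21.2% in KO, against 9.51% and 8.84% in WT. The share of Bmp6 overlapped, with 48.7% and 58.6% in KO and 58.0% and 56.7% in WT. Among the antagonists Fst held 40.0% and 37.8% in KO, against 65.1% and 61.7% in WT. Nog held 15.1% and 13.1% in KO, against 6.17% and 4.62% in WT. Grem1 held 44.3% and 48.4% in KO, against 28.4% and 33.1% in WT. Shares within a sum depend on each other, so a higher share of Bmp5 or Grem1 is partly the counterpart of lower Bmp2 or Fst.

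**Figure D3:**
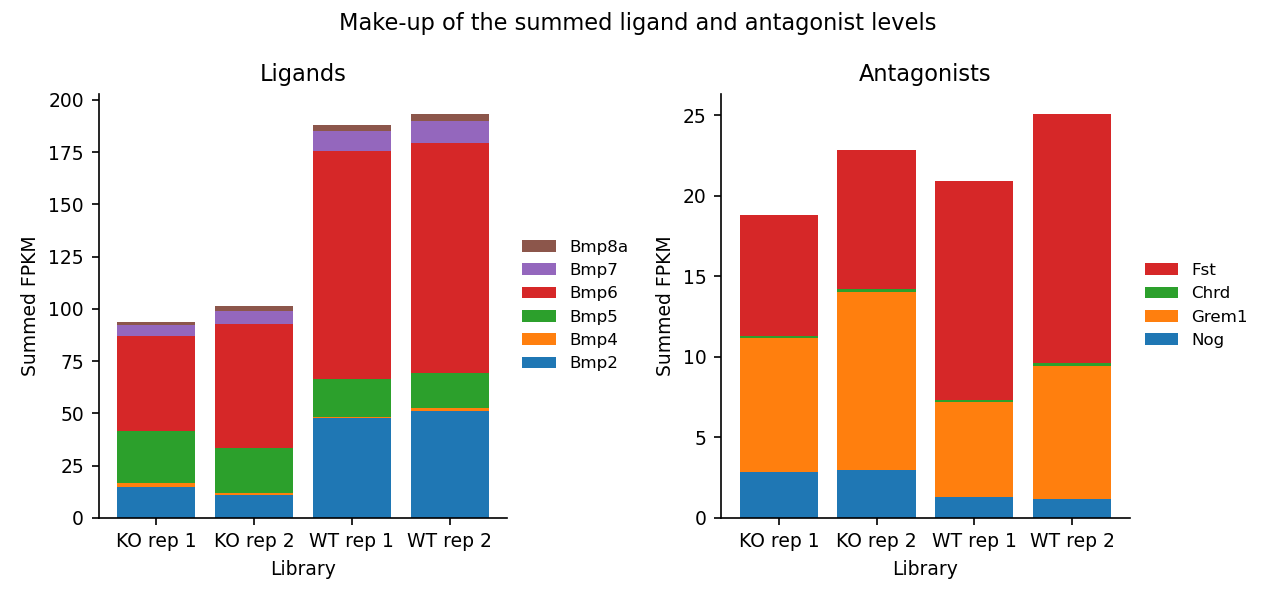
Stacked bars of FPKM in each library, with ligands in the left panel and antagonists in the right (linear axes from 0; KO libraries left of WT libraries; colours are genes). The ligand bars reach 93.6 and 101 FPKM in KO and 188 and 193 FPKM in WT, mostly Bmp6 and Bmp2, while the antagonist bars, in FPKM, overlap between the groups; in CPM their sums did not.

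The rest of the BMP pathway was followed in 4 lists of 64 genes, of which 55 were tested, 8 were listed under the filter and 1 (Bmp10) was not listed. 6 rose, 7 fell and 42 did not pass, 23.6% called beside 9.25% of all tested genes. The lists were chosen with earlier results of these data known, so these shares are a description only. Among 13 tested genes of other ligands of the family 0 rose, 2 fell and 11 did not pass (median log2 fold change -0.46). Inhba, the gene of the activin A subunit, which follistatin binds, measured 211 and 217 CPM in KO, against 540 and 657 CPM in WT (log2 fold change -1.48, SE 0.11, edgeR adjusted p = 0.00182). Gdf15, a divergent family member linked to cell stress, measured 7.60 and 5.37 CPM in KO, against 23.1 and 21.2 CPM in WT and fell 3.41-fold (edgeR adjusted p = 0.0047). Both genes had KO libraries well below the WT libraries. Inhbb, the activin B subunit gene, did not pass (log2 fold change -0.74, edgeR adjusted p = 0.0842), nor did Bmp8b (-1.01, 0.328).

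Among 15 tested genes of other secreted antagonists and modulators 0 rose and 1 fell (median log2 fold change -0.17). The called share was 6.67%, beside 9.25% of all tested genes, and 15 genes are too few to tell these shares apart. The gene that fell was Htra1, a secreted serine protease, with 21.5 and 23.3 CPM in KO, against 47.4 and 50.1 CPM in WT (log2 fold change -1.12, SE 0.08, edgeR adjusted p = 0.00197). The next in p, the antagonist gene Nbl1, the chordin-cleaving protease gene Tll1 and the antagonist gene Dand5, had log2 fold changes of -0.38, -0.22 and 0.46 and edgeR adjusted p-values of 0.168, 0.2 and 0.206. Besides Nog, no tested gene of the secreted antagonists and modulators passed upward.

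Of 12 tested receptor and co-receptor genes 1 rose and 4 fell (median log2 fold change -0.13), 41.7% called beside 9.25% of all tested genes. Bambi, a decoy receptor without a kinase domain, measured 26.8 CPM in both KO libraries, against 15.4 and 16.7 CPM in WT, and rose 1.67-fold (edgeR adjusted p = 0.0096). The type I receptor genes Acvr1 and Bmpr1b fell 1.38-fold and 1.31-fold, the co-receptor genes Rgmb and Eng 1.47-fold and 1.34-fold, and their edgeR adjusted p-values ran from 0.0135 for Acvr1 to 0.0429 for Bmpr1b. Eng is also an endothelial gene. The main receptor genes Bmpr1a and Bmpr2 had log2 fold changes of 0.12 (95% interval -0.08 to 0.32) and 0.13 (-0.07 to 0.34) and did not pass.

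Among 15 tested Smads and BMP target genes 5 rose, 0 fell and 10 did not pass (median log2 fold change 0.21). The called share was 33.3%, beside 9.25% of all tested genes. Smad6, an inhibitory Smad induced by BMP signalling, measured 46.4 and 56.1 CPM in KO, against 27.8 and 27.1 CPM in WT. Id3, a dominant inhibitor of basic helix-loop-helix factors and a BMP target, measured 158 and 194 CPM in KO, against 90.8 and 83.5 CPM in WT. Smad9, a BMP receptor substrate, measured 15.2 and 17.7 CPM in KO, against 8.38 and 7.17 CPM in WT. In these 3 genes each KO library exceeded both WT libraries, with log2 fold changes of 0.90 (SE 0.11), 1.02 (SE 0.11) and 1.08 (SE 0.14) and edgeR adjusted p-values of 0.00844, 0.0071 and 0.0109. Id4 and Id1, of the same family as Id3, rose 1.45-fold and 1.46-fold (edgeR adjusted p = 0.0236 and 0.027). Not all of the list went upward. Smad7, Smad5, Smad4, Smurf1 and Smurf2 lay lower in both KO libraries without passing, with log2 fold changes of -0.38, -0.21, -0.18, -0.18 and -0.13. Msx1, Id2, Msx2, Smad1 and Hey1 did not pass either, with log2 fold changes of 0.61, 0.27, 0.21, 0.09 and 0.04.

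**Figure D4:**
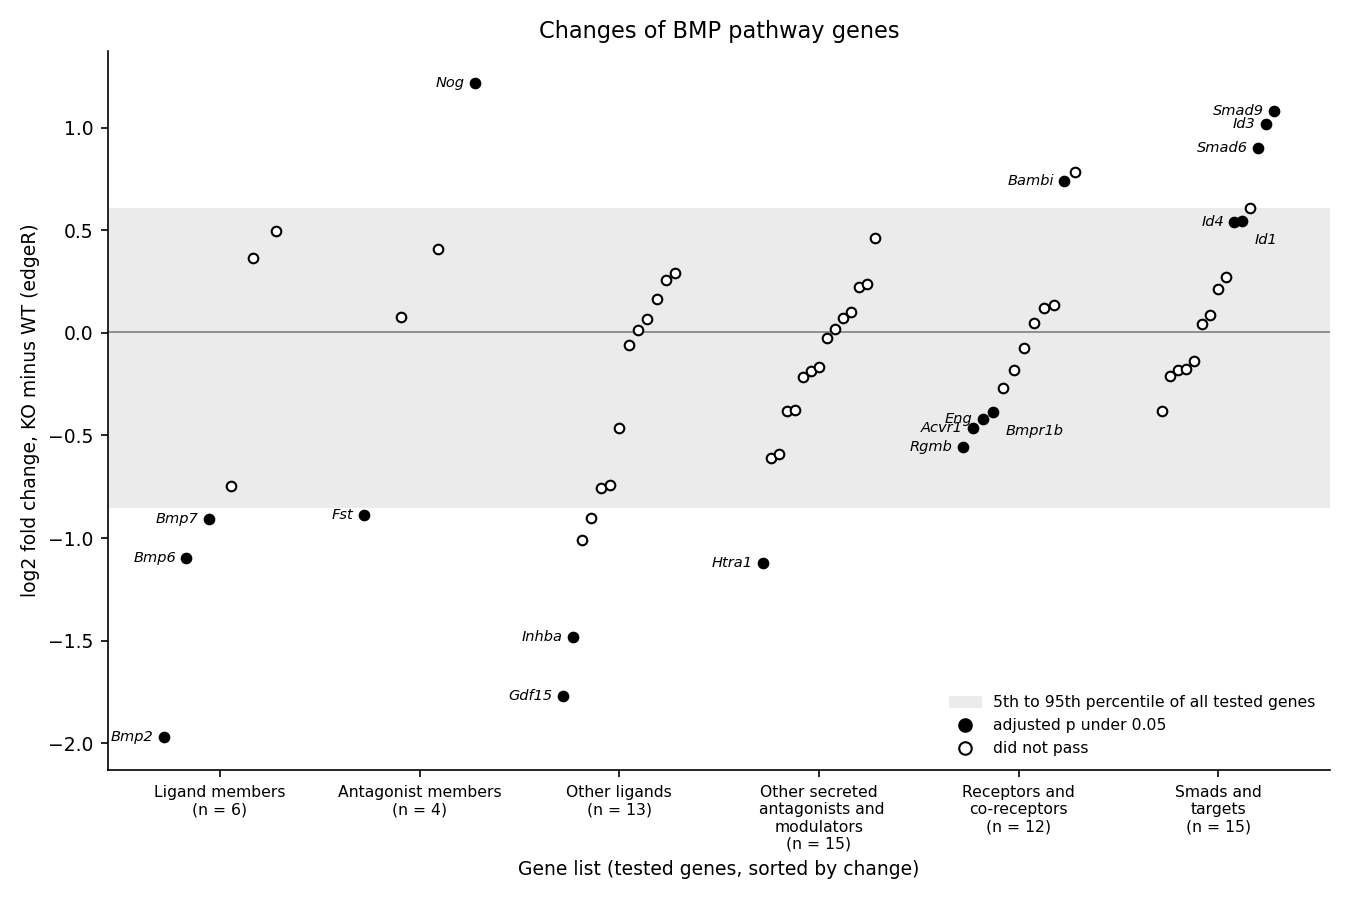
Log2 fold change, KO minus WT, of the ligand and antagonist genes and of the tested genes in 4 further lists, each sorted by change; filled, named points have an edgeR adjusted p under 0.05, and the grey band spans the 5th to 95th percentile of all tested genes (-0.85 to 0.60). Bmp2 (-1.97) is lowest, Nog (1.22) is highest, and the called genes of the Smad and target list all lie above 0.

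The 3 genes nearest to Bmp2 in mean-centred log2 CPM over the 4 libraries, of 9836 compared, were Adgra1 (distance 0.0542), Hmga1 (0.268) and Gdf15 (0.321). The adhesion receptor gene Adgra1 measured 3.77 and 2.67 CPM in KO, against 12.6 and 14.5 CPM in WT. With 4 libraries in 2 groups this likeness is a description.

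The authors' deposited table compares conditional knockout with control by DESeq2, and does not name the libraries used. Of the 10 genes in the authors' deposited table, 6 had an adjusted p under 0.05, beside 8.52% of its genes, and 3 (Bmp2, Bmp6 and Nog) were marked as changed, beside 1.58%. The marks in the authors' deposited table fall on the 277 genes with an absolute log2 fold change of at least 1 and an adjusted p under 0.05. For Bmp5 the authors' deposited table gives a log2 fold change of 0.36 and an adjusted p of 0.0451, and for Bmp8a -0.70 and 0.0736.

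Summed levels of several marker lists of other cell types were lower in the KO libraries, though not every marker in them was. The counts called below stand beside 3.62% of all tested genes rising and 5.63% falling, and each list is short. Of 6 macrophage markers 0 rose and 1 fell, with summed levels of 50.2 to 59.0 FPKM in KO and 91.2 to 92.1 FPKM in WT. Those sums were mostly Cd14, the marker that fell, at 37.25 and 46.18 FPKM in KO and 74.94 and 76.93 FPKM in WT. Cd68, Csf1r and Ptprc lay lower in KO without passing, and Adgre1 and Mrc1 overlapped between the groups. Of 5 endothelial markers 0 rose and 3 fell (19.2 to 23.2 FPKM in KO, 27.6 to 30.96 FPKM in WT). Of 5 osteoblast markers 0 rose and 1 fell (1.55 to 2.26 FPKM in KO, 4.5 to 5.04 FPKM in WT), and of 5 fibroblast markers 0 rose and 2 fell (215 to 295 FPKM in KO, 355 to 532 FPKM in WT). The fibroblast sums were mostly Dcn, which fell, at 139.79 and 172.31 FPKM in KO and 244.17 and 391.99 FPKM in WT. Col1a2 fell too. Col1a1, Col3a1 and Lum overlapped between the groups, with log2 fold changes of -0.51, 0.06 and 0.35. Of 3 tested erythroid markers 0 rose and 2 fell (15.4 to 17.1 FPKM in KO, 28.05 to 33.2 FPKM in WT). Of 4 tested skeletal muscle markers 1 (Tnnt3) rose and 0 fell. Their sums were 3.35 FPKM in KO replicate 1 and 12.45 FPKM in KO replicate 2, against 3.66 to 4.22 FPKM in WT. Acta1, Myod1 and Myog were each highest in KO replicate 2 and overlapped between the groups. All 3 tendon markers were tested, with 0 rising and 0 falling (6.26 to 7.96 FPKM in KO, 7.01 to 9.16 FPKM in WT). No tested marker was at 0 in all 4 libraries. The part of such cells in the values of the BMP genes was not tested, and fewer cells of a type and less RNA per cell cannot be told apart in bulk RNA.

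The edgeR calls needed both WT libraries. Leaving 1 out leaves 1 WT sample, which is assumed to vary like the 2 KO samples. Without WT replicate 1 or WT replicate 2 edgeR called 0 of the 10 genes and 0 of all genes, with 7 and 6 of the 10, and 3442 and 2587 of all genes, at an unadjusted p under 0.05. With all 4 libraries 7 of the 10 were under that unadjusted p, beside 29.2% of all genes. The log2 fold changes in those edgeR fits were -2.04 and -1.89 for Bmp2, -1.12 and -1.07 for Bmp6, -0.98 and -0.82 for Bmp7, -0.99 and -0.77 for Fst and 1.28 and 1.16 for Nog. DESeq2, run the same way, called 4 of the 10 in each case (Bmp2, Bmp6, Bmp7 and Fst) and 540 and 416 of all genes. Without KO replicate 1 edgeR called 5 of the 10, beside 1090 of all genes (7.71%), and without KO replicate 2 it called 7, with Bmp5 and Bmp8a added, beside 1275 of all genes (9.04%). Nog passed in edgeR without either KO library and in DESeq2 with all 4 libraries, but in DESeq2 without any single library its adjusted p ran from 0.121 to 0.248, with a log2 fold change of 1.16 to 1.28.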

How the data were processed

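RNA-seq values of 2 KO and 2 WT libraries of plated rib chondrocytes were used, grouped by their titles. The authors deposited an expected count and an FPKM value per gene and library, with the transcript length in bases, per the file headers. Bowtie2 2.2.5 and mm9 were used, per the submitters' processing notes; no source used here names the counting tool, the annotation or the use of strand, so antisense reads are not told apart. 74.2% to 74.6% of expected counts were whole within 0.005. The authors' deposited comparison, per its file name by DESeq2, gives for each gene a mean signal per group (normalized counts), a log2 fold change and p-values.

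Expected counts were rounded and tested with edgeR 4.0.16 (R 4.3.3): TMM, filterByExpr, quasi-likelihood F tests, Benjamini-Hochberg adjustment over 13773 genes, threshold 0.05. Standard errors were derived as log2 fold change divided by √F. Genes absent from a library's list were set to 0 there. 26 entries without a gene number (0.0271% of counts) were kept; none belongs to the 10 genes. Depth was 31178248 to 32332044 counts. Replicates differed by more than counting noise (chi-square per gene 20.2 in WT and 22.1 in KO, 63.6 to 96.1 between groups). Alternatives were RLE and upper-quartile scaling, DESeq2 1.42.0, no filter, at least 5 CPM, limma 3.58.1 on log2(FPKM + 1) and log2(FPKM + 0.1) over genes averaging at least 1 FPKM, transcript entries summed with their gene, a replicate block, and each library left out; DESeq2 with a library left out was added after seeing the data. The edgeR step was tested on simulated data.

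The members and lists were chosen with earlier results of these data known. Named were the members, Kdm6a and Kdm6b, the 4 smallest p-values of each list and the 3 genes nearest to Bmp2. Id1 and the rest of the Smad and target list, Bmpr1b, Bmpr1a, Bmpr2 and Bmp10 were named after their values were seen. Promoter windows of 6 of the 10 genes were matched by symbol.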

Additional observations from a re-analysis of the deposited data

How the results depend on the processing

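Of the 10 genes, Bmp2, Bmp6, Bmp7, Fst and Nog kept their direction and their call with RLE and upper-quartile scaling, DESeq2, no filter, limma on FPKM, summed transcript entries and the replicate block, and with a floor of 5 CPM, where Nog, at an average under that floor, was not tested. Bmp5 passed with upper-quartile scaling (log2 fold change 0.37), in DESeq2 (0.37), with at least 5 CPM (0.35) and with the replicate block (0.36), and Bmp8a passed with the replicate block (-0.75). With RLE scaling, no filter, limma on FPKM and summed transcript entries Bmp5 did not pass. Without a filter 720 of all genes were called, over 17547 tested. The replicate block called 2316 of all genes and 7 of the 10. The titles number the replicates, but no label ties the numbers to a shared animal or day; with 2 pairs, deviations of the same number correlated at 0.164 over 9845 genes, so this pairing is not used. Limma on FPKM called 562 rising and 506 falling genes with a pseudocount of 1 and 545 and 494 with 0.1, against 498 and 776 in edgeR. The KO to WT ratio of summed ligands was 0.475 in CPM, which does not divide by length, against 0.511 in FPKM, and that of summed antagonists 0.794 in CPM, against 0.905 in FPKM.

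Over single libraries left out, in edgeR and DESeq2, calls ran from 0 to 1275 of all genes (DESeq2: 659 without KO replicate 1, 794 without KO replicate 2, 540 without WT replicate 1 and 416 without WT replicate 2), 0 to 7 of the 10 and 0 to 14 of the other pathway genes (DESeq2: 7 without WT replicate 1 and 8 without WT replicate 2). Log2 fold changes ran from -2.19 to -1.77 for Bmp2, -1.29 to -0.91 for Bmp6, -1.07 to -0.75 for Bmp7, -0.99 to -0.77 for Fst and 1.16 to 1.28 for Nog (DESeq2: 1.25 without KO replicate 1 and 1.19 without KO replicate 2). For Grem1, which passed in none of these fits, they ran from 0.17 to 0.70, for Bmp5 from 0.26 to 0.47 and for Bmp8a from -0.95 to -0.54 (edgeR: -0.94 without KO replicate 2). Bmp4 (-0.15 to 0.95) reversed without KO replicate 1, to -0.14 in edgeR and -0.15 in DESeq2. Chrd (-0.41 to 0.81) reversed without KO replicate 2, to -0.19 in edgeR, and without WT replicate 1, to -0.41 in both; 8 to 18 counts a library limit it. The cause of these shifts was not tested beyond fewer samples.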
